A study of Mus musculus with 8 samples.

Results

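A set of 82 genes of the ubiquitin system that differed between ARE-/- and WT mouse hearts was examined, out of the 4820 genes that the authors' deposited table lists as changed. The members are the protein-coding genes of that table whose symbol begins with Trim, Rnf, Ube2, Usp, Fbxo, Fbxl, Fbxw, Klhl or Asb and goes on with a digit or, for Ube2, a letter. Usp18 and Ube2l6 were left out. The 9 prefixes define 9 subfamilies: 20 TRIM, 20 RNF, 6 UBE2, 9 USP, 8 FBXO, 1 FBXL, 4 FBXW, 7 KLHL and 7 ASB genes. The authors tested 19606 genes, and their table is limited to the 24.6% that reached an adjusted p under 0.05, so each member had passed that test before it could be counted. Genes of these subfamilies outside the table were not analysed here.

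Ubiquitin is a small protein that is joined to other proteins to mark them for the proteasome or to change their signalling. An E1 enzyme activates it, an E2 enzyme (the UBE2 proteins) carries it, and an E3 ligase picks the target. Most TRIM and RNF proteins are RING ligases, while F-box (FBXO, FBXL, FBXW), Kelch-like (KLHL) and ASB proteins are adaptors that bring targets to cullin ligases, and USP proteins are proteases that remove ubiquitin again. In heart and skeletal muscle a few of these ligases turn over sarcomere proteins, and many TRIM proteins belong to the antiviral response that interferons switch on.

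The compared groups were hearts of 4 ARE-/- and 4 WT mice of strain C57B6/J, all 20 to 25 weeks old. The labels give no other treatment, no transgene driver and no meaning for ARE, which is known as the name of an AU-rich element that limits the life of the Ifng transcript, and the study's title names IFN-g. Ifng reads numbered 103, 37, 27 and 61 in the ARE-/- libraries and 0, 3, 0 and 1 in the WT libraries. Total RNA was sequenced in pairs of reads, and library totals ran from 13416171 to 19432098 reads. The members took at most 0.308% of the reads in an ARE-/- library and at most 0.258% in a WT library.

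A library in each group stood apart from the other 3. The biological coefficient of variation was 27.2% over all ARE-/- libraries and 6.04% without replicate 1, and 15.3% over all WT libraries and 6.44% without replicate 3. Values without these libraries are given beside the results they touch. They rest on 3 libraries of the group concerned, and the libraries left out were picked from these data as the most distant. The SE of such a value is therefore small by selection and shows no gain in precision. The labelled tissue was checked on 14 cardiomyocyte markers, of which 9 were listed and fell, with summed normalised counts of 376916 to 567455 in ARE-/- and 721741 to 1026350 in WT. Of 20 macrophage and monocyte markers, 15 rose and 1 fell, and their summed level was 44467 to 63495 in ARE-/- and 8034 to 12959 in WT. All 16 listed of 20 T and NK cell markers rose, and their summed counts were 2652 to 3623 in ARE-/- and 386 to 788 in WT. Of 10 genes each, 3 fibroblast markers rose, 3 endothelial markers fell and 1 skeletal muscle marker rose. In whole hearts, fewer cells of a type and less RNA per cell cannot be told apart, and the part of these cell types in the results below was not tested.

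The subfamilies leaned in different directions. Of the 82 members, 37 rose and 45 fell in ARE-/- hearts, a risen share of 45.1% beside 52.1% of all listed genes, with 47.9% fallen. Of the RING-type genes 14 of 20 TRIM and 12 of 20 RNF genes rose, with median log2 differences of 0.58 and 0.61, the RNF median being 0.32 with GC offsets. Cullin adaptors mostly fell: 21 of the 27 FBXO, FBXL, FBXW, KLHL and ASB genes, with a median of -0.74. Of the deubiquitinases 7 of 9 USP genes fell, with a median of -0.64. That median was -0.018 with GC offsets, and edgeR refits with GC offsets or with library totals called 2 USP genes risen and 1 fallen. Over all listed genes these refits called 1405 risen and 1107 fallen with GC offsets, and 2425 and 1004 with library totals. Normalised counts are reads divided by the authors' size factors. They were put on a log2 scale after adding 0.5, and the log2 difference is the ARE-/- mean less the WT mean on that scale. The median over all listed genes was 0.44 on this scale, and over listed protein-coding genes 0.52, of which 55.0% rose. Without GC offsets, both RING-type medians and the RNF share of 60% were near this background. Each listed gene had passed a test of difference, so such a median depends largely on which direction holds more genes. Risen listed genes had a median of 1.01 and fallen ones of -1.02. With GC offsets the median of all listed genes was 0.01 and that of TRIM 0.46 (edgeR refit). The value of 0.44 is thus no background for medians with GC offsets. No test was made between subfamilies.

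Within the adaptors the prefixes did not all behave alike. Fallen genes numbered 7 of 8 in FBXO, 6 of 7 in KLHL and 6 of 7 in ASB, with median log2 differences of -0.51, -0.90 and -0.84. With GC offsets these medians were -0.29, -0.28 and -0.38, and an edgeR refit called 1 FBXO, 3 KLHL and 2 ASB genes fallen. Over all listed genes it called 1405 risen and 1107 fallen, against 2512 and 2308 in the authors' table. The median of all listed genes was 0.01 in that refit. In FBXW 3 of 4 rose, with a median of 0.81. The 6 UBE2 genes split into 3 risen and 3 fallen, with a median of 0.01, a value that changed sign under another scaling (-0.12 with TMM). No UBE2 gene lay near that median, the closest being Ube2q1 at 0.44 and Ube2b at -0.41. The annotation counts 68 TRIM, 85 RNF, 36 UBE2, 55 USP, 36 FBXO, 18 FBXL, 23 FBXW, 36 KLHL and 18 ASB protein-coding genes. Among the subfamilies with more than 1 listed gene, listed shares ran from 16.4% in USP to 29.4% in TRIM and 38.9% in ASB, against 20.2% of all annotated protein-coding genes.

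**Figure D1:**
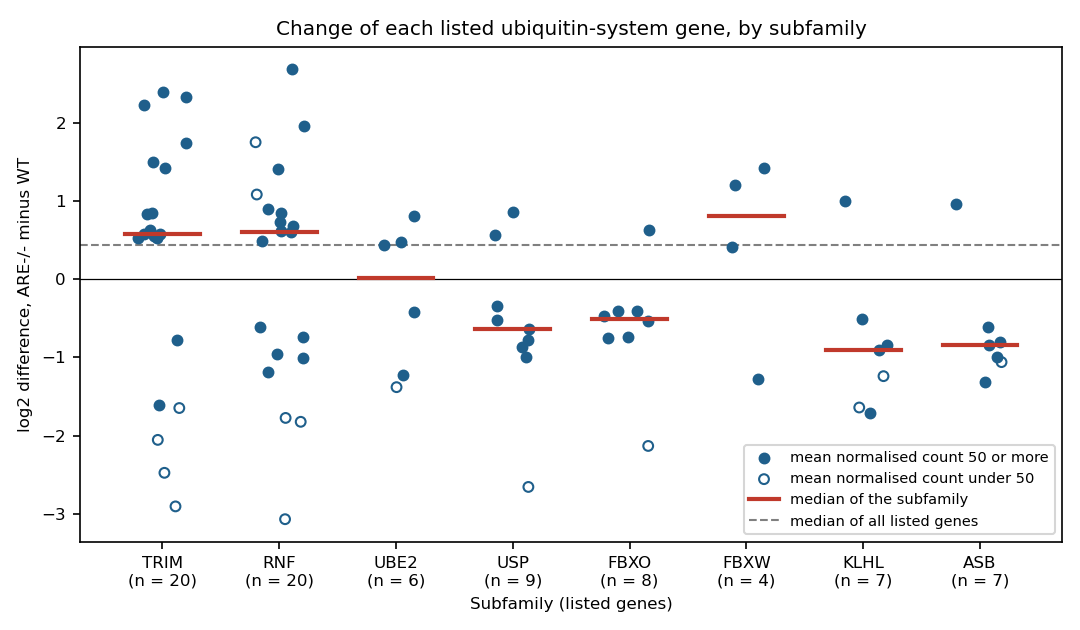
Log2 difference of 81 listed genes (vertical axis, ARE-/- minus WT) in the 8 subfamilies with more than 1 of them (horizontal axis). Each point is a gene, filled at a mean normalised count of 50 or more and open below it; red bars are subfamily medians, from -0.90 in KLHL to 0.81 in FBXW, and the dashed line is the median of all listed genes, 0.44.

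In 71 of the 82 members (86.6%) the 4 ARE-/- values lay wholly to one side of the 4 WT values, beside 81.5% of all listed genes. A log2 difference of at least 1 was found in 13 members, beside 26.5% of the listed genes, and one of -1 or less in 20 members, beside 24.4%. Separation of the groups and large falls were thus about as common as among all listed genes, and large rises were less common, with no test of that difference. Of 15 members with a mean normalised count under 50, 13 fell and 2 rose, and among all listed genes at that level 66.6% fell. At 50 or more, 35 members rose and 32 fell, beside 58.8% risen among all listed genes. The split also moved with scaling, to 23 risen and 45 fallen members with TMM and to 36 risen and 22 fallen with library totals, settings that shifted the median of all listed genes by -0.13 and 0.20. Risen shares of the calls were 33.8% of members and 42.1% of all listed genes with TMM, and 62.1% and 70.7% with library totals. No member changed sign under either scaling. With offsets that remove the trend with transcript GC content, 25 members rose and 20 fell in an edgeR refit, and the median of all listed genes shifted by -0.44. Of the calls in that refit, 55.6% of members and 55.9% of all listed genes were risen. The trend with GC content was fitted on the listed genes, so a difference between genotypes that runs with GC content is removed with it. Under these offsets 8 members changed sign, none of them with a call.

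TRIM proteins carry a RING finger, a B-box and a coiled coil, and many are antiviral. The 6 listed TRIM genes of chromosome 7 all rose. Trim34a, Trim12a, Trim12c, Trim30a and Trim30d lie within 263.4 kb, and Trim21 lies apart from them on the same chromosome, at chr7:102557922-102565469 on the reverse strand (mm10, as the deposited table gives it). The annotation places 12 protein-coding TRIM genes in the stretch from Trim21 to Trim30d, and the other 6 were not listed. Trim21 encodes the cytosolic receptor of antibodies, Trim12a and Trim12c are mouse relatives of the human restriction factor TRIM5, and Trim30a encodes an inhibitor of inflammatory signalling.

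The promoters of these genes are shown because they share a short match. A window from 250 bases before to 50 after the gene start, from RefSeq on GRCm38.p6, was found for 65 of the 82 members. Each was searched on both strands for the core of the interferon-stimulated response element (GAAA, a pair of any bases, GAAA), in capitals here, where a match on the opposite strand reads as TTTC, a pair of bases, TTTC. Overlapping matches are capitalised as 1 run. All 6 listed chromosome 7 genes had a match. The strand and place of each stretch were chr7:102565433-102565494 reverse for Trim21, chr7:104244442-104244501 forward for Trim34a, chr7:104315451-104315510 reverse for Trim12a, chr7:104353344-104353403 reverse for Trim12c, chr7:104465195-104465254 reverse for Trim30a, chr7:104507856-104507915 reverse for Trim30d, chr17:36836961-36837026 forward for Trim26, chr8:54577409-54577468 forward for Asb5 and chr14:26894419-26894478 forward for Asb14. The Asb5 start used by RefSeq lies inside the gene as the deposited table places it.
Trim21: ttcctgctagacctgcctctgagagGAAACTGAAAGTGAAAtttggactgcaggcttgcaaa
Trim34a: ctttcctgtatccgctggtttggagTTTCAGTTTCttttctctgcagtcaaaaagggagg
Trim12a: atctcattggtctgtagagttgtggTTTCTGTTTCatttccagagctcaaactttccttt
Trim12c: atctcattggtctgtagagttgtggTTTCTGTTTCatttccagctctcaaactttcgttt
Trim30a: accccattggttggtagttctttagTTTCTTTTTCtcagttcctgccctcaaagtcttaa
Trim30d: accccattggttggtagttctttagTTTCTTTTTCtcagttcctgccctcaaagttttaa
Trim26: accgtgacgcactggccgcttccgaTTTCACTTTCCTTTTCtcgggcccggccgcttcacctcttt
Asb5: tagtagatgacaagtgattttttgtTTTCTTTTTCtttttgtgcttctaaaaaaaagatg
Asb14: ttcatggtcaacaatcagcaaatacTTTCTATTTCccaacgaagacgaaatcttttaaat

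Neighbouring copies were nearly identical in these stretches: Trim12a and Trim12c shared 57 of 60 bases (95%), and Trim30a and Trim30d shared 59 of 60 (98.3%), so these matches are not separate instances. A second Trim30a window, further inside the gene, also had a match, at chr7:104446089-104446148 on the reverse strand. Compared position by position, that stretch shared 45 of 60 bases (75%) with the one of Trim30d. The match was found in 7 of 31 risen members with a window (22.6%), the 6 above and Trim26. It was found in 2 of 34 fallen members (5.88%), Asb5 and Asb14, and in 3.99% of all 27025 genes with a window. Among the 6 unlisted TRIM genes of the chromosome 7 stretch, 1 had a match. The gamma-activated site TTCNNNGAA was in the window of 1 risen and 3 fallen members, beside 9.55% of all genes, and the forkhead motif GTAAACA was in 1 of each, beside 4.05%.

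Trim21 had normalised counts of 665, 435, 399 and 411 in ARE-/- hearts and 90.1, 83.8, 97.8 and 82.2 in WT hearts, in order of replicate number. The groups lay far apart, with ARE-/- replicate 1 the highest, and the log2 difference was 2.40 ± 0.18 (SE, n = 4 each, adjusted p = 5.17e-25 in the authors' deposited table, DESeq2). Without both libraries that stood apart it was 2.27 ± 0.05. Trim21 was the only member called when the 3 close libraries of each group were summed to 1 replicate (edgeR, log2 fold change 2.56, adjusted p = 0.0174). That setting removed most calls of the whole table, with 273 risen and 24 fallen left of 4820 listed genes.

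Trim30a counts were 1072, 391, 439.9 and 449 in ARE-/- and 139, 159, 218 and 136 in WT, a log2 difference of 1.74 ± 0.37. Trim30d counts were 419, 139.9, 150.2 and 161 in ARE-/- and 40.8, 37.1, 42.6 and 32.9 in WT, a difference of 2.33 ± 0.38. In both genes ARE-/- replicate 1 was far above the other ARE-/- hearts, which themselves lay above every WT heart. Without ARE-/- replicate 1 the differences were 1.41 ± 0.17 for Trim30a and 1.96 ± 0.10 for Trim30d.

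Trim34a, a gene near the TRIM5 relatives, had 197, 111, 105 and 121 counts in ARE-/- and 42.0, 47.9, 79.4 and 32.9 in WT, a log2 difference of 1.42 ± 0.34. Trim12a had 641, 327, 272 and 288 counts in ARE-/- and 246, 169.9, 201 and 185 in WT, and Trim12c had 365, 298, 284 and 310.1 in ARE-/- and 258, 206, 131 and 238 in WT. The groups did not overlap in any of these 3 genes, and replicate 1 was again the highest ARE-/- heart in each. The differences of Trim12a and Trim12c were 0.85 ± 0.31 and 0.63 ± 0.23, with adjusted p = 0.011 and 0.0442 in the authors' deposited table (DESeq2). Without ARE-/- replicate 1 they were 0.57 ± 0.14 and 0.56 ± 0.22, and Trim12c no longer passed in the edgeR refit (adjusted p = 0.0687). Over 17 alternatives the call was lost in 7 for Trim12a and in 11 for Trim12c. Reads of these genes may be shared, since 49.8% of the 31-base words of Trim34a transcripts also occur in Trim34b, 48.9% of those of Trim12c in Trim5 and Trim12a, and 11.8% and 12.3% of those of Trim30a and Trim30d in each other and Trim30c.

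Interferon-related TRIM genes on other chromosomes rose as well. Trim14, an adaptor of the mitochondrial antiviral protein MAVS, had 46.6, 111, 89.6 and 116 counts in ARE-/- and 18.0, 15.6, 18.4 and 19.5 in WT, a log2 difference of 2.23 ± 0.31, though 38.0% of its exon bases overlap genes on the opposite strand. Trim25, which ubiquitinates the RNA sensor RIG-I, rose less but evenly, with 449, 464, 431 and 433 counts in ARE-/- and 309, 280.0, 312 and 328 in WT (0.53 ± 0.05). Trim26 averaged 333 ± 41.5 counts in ARE-/- and 225 ± 24.6 in WT (SD, n = 4 each), with its call lost in 9 of 17 alternatives. All 4 ARE-/- values exceeded all 4 WT values in each of these 3 genes. ARE-/- replicate 1 was the lowest heart of its group for Trim14 and Trim26, the reverse of the chromosome 7 genes.

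Over all subfamilies, 15 of 30 interferon-related ligases and adaptors were listed and all 15 rose, with a median log2 difference of 1.41. The list was drawn up with earlier results of these data known, so its direction is no independent evidence. The median over these genes, relative to the WT mean, was 1.62 in ARE-/- replicate 1 and 1.13 to 1.20 in the other ARE-/- hearts, and -0.11 to 0.16 in WT. The largest rises came from RNF as well as TRIM genes, and 14 of the 15 showed no overlap between groups, Rnf125 being the exception.

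**Figure D2:**
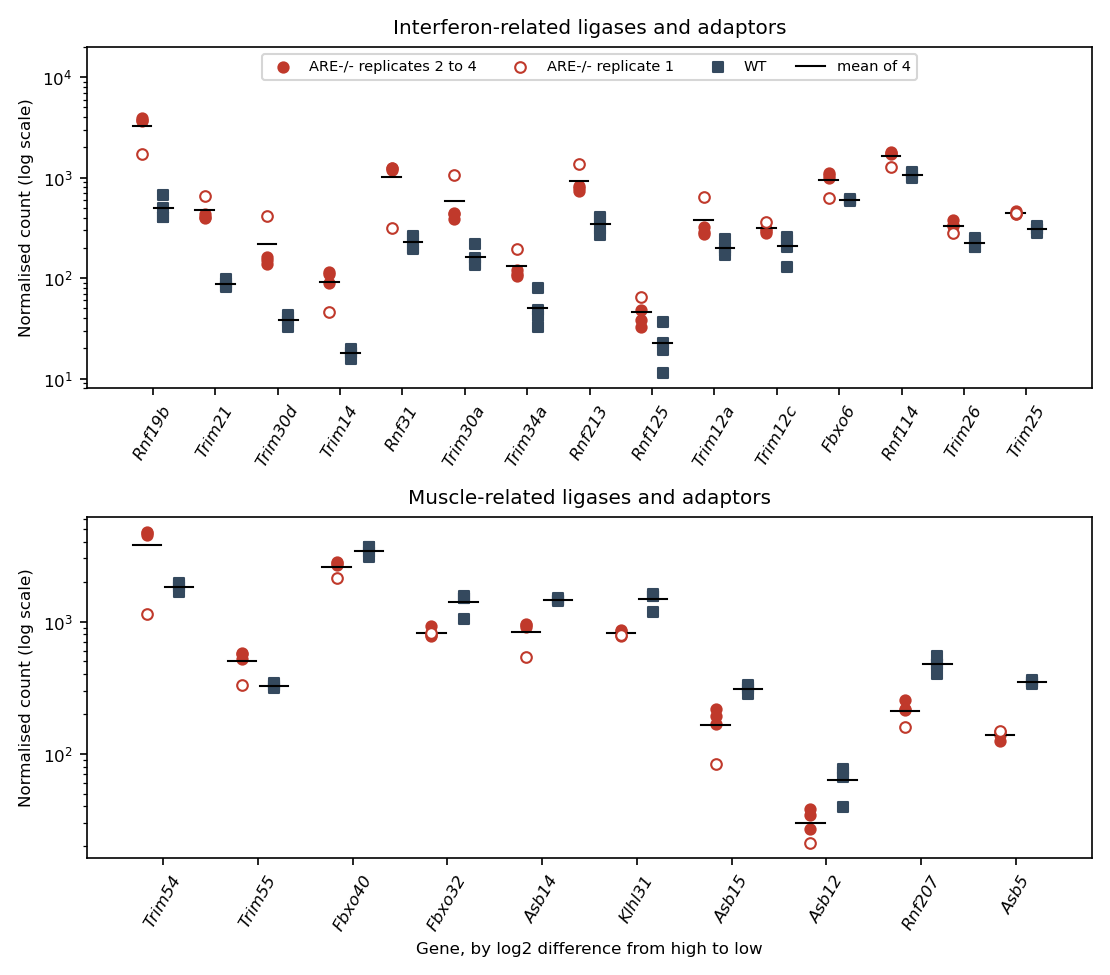
Normalised count in each heart (vertical axes, log scale) of the 15 listed interferon-related genes (top) and the 10 listed muscle-related genes (bottom), ordered by log2 difference; circles are ARE-/- hearts, with replicate 1 open, squares are WT hearts and bars are means of 4. All 15 upper genes were higher in ARE-/-, and of the lower genes Trim54 and Trim55 rose and the other 8 fell.

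RNF genes held the largest rise of all members. Rnf19b encodes a RING-between-RING ligase known from natural killer cells, and lies at chr4:129058271-129085886 on the forward strand (mm10). Its counts were 1731, 3795, 3644 and 3958 in ARE-/- and 402, 402, 679.6 and 504 in WT, a mean of 6.60 times the WT level and a log2 difference of 2.68 ± 0.34 (adjusted p = 1.45e-19 in the authors' deposited table, DESeq2). The lowest ARE-/- heart, replicate 1, was still above every WT heart, and without it the difference was 2.97 ± 0.18. Per length, Rnf19b went up to 86.2 ± 22.3 FPKM in ARE-/-, against 11.7 ± 3.32 in WT (SD, n = 4 each), behind only Trim54 and Ube2b among the members in ARE-/- hearts.

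Rnf31 encodes the catalytic subunit of the complex that builds linear ubiquitin chains in NF-kB signalling. Its counts were 313, 1198, 1257 and 1261 in ARE-/- and 199, 196, 264 and 249.8 in WT. The groups did not overlap, but ARE-/- replicate 1 lay close to WT, and the log2 difference was 1.96 ± 0.51 with it and 2.46 ± 0.11 without it. Genes that act on the same chains were listed too: the partner subunit Rbck1 averaged 1379 ± 320.5 counts in ARE-/- and 864.5 ± 82.3 in WT, and Otulin, the protease specific for these chains, 619.6 ± 53.3 in ARE-/- and 461.9 ± 47.0 in WT. Both rose, though the Rbck1 groups overlapped.

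Rnf213, a very large ligase whose human gene is tied to moyamoya disease, had 1374, 832, 792 and 746 counts in ARE-/- and 406, 270.4, 394 and 309 in WT. Replicate 1 was the highest ARE-/- heart, and the log2 difference was 1.41 ± 0.25 with it and 1.21 ± 0.15 without it. Rnf114, an interferon-responsive ligase, had 1289, 1822, 1742 and 1717 counts in ARE-/- and 1139.9, 1009.9, 996 and 1124 in WT. The groups did not overlap and the difference was 0.61 ± 0.12, but it turned to -0.11 with GC offsets (edgeR refit, adjusted p = 1). Rnf125, a ligase that limits RIG-I, averaged 45.9 ± 14.0 counts in ARE-/- and 22.5 ± 10.7 in WT with overlapping groups, and its call (adjusted p = 0.0498 in the authors' deposited table, DESeq2) was lost in 14 of 17 alternatives.

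The clearest fall among RNF genes above 50 counts was that of Rnf207, a cardiac ligase that acts on a potassium channel of repolarisation in human heart. Its counts were 160.2, 218, 254 and 216 in ARE-/- and 479, 479, 403 and 549 in WT. Every ARE-/- heart lay below every WT heart, and the log2 difference was -1.18 ± 0.17 (adjusted p = 2.94e-08 in the authors' deposited table, DESeq2). Rnf150, Rnf6 and Rnf8 fell by 1.01, 0.73 and 0.96, and Rnf152 and Rnf165 by 1.77 and 1.82 at mean counts under 50. The Rnf8 groups overlapped, and 34.3% of its 31-base words occur in other genes, such as Gm28043 on the same strand. The other RNF falls ran from -0.61 in Rnf128 to -3.07 in Rnf222, which averaged 0.82 counts in ARE-/- and 9.54 in WT. Rnf181, Rnf149, Rnf145 and Rnf115 rose by 0.61, 0.91, 0.74 and 0.69, without overlap between groups. Of the 31-base words of Rnf149, 27.5% occur in other genes, such as Gm15832 on the same strand. All remaining RNF rises ran from 0.49 in Rnf130 to 1.75 in Rnf180, which had 22.9 counts at most in any heart. Rnf123 rose by 0.85 ± 0.47 over all hearts and by 1.30 ± 0.15 without ARE-/- replicate 1, whose 251 counts lay under all 4 WT hearts. With GC offsets its difference was 0.17 (edgeR refit, adjusted p = 1), and Rnf6, Rnf8, Rnf128 and Rnf152 did not pass either (adjusted p = 0.149, 0.109, 1 and 0.0928).

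A pair of sarcomere ligases of the TRIM family went against the other muscle genes. Trim54 and Trim55, known as MuRF3 and MuRF2, bind the sarcomere and microtubules in striated muscle. Trim54 counts were 1144, 4642, 4548 and 4719 in ARE-/- and 1840.1, 1900.2, 1669 and 1946 in WT. In 3 of 4 ARE-/- hearts it was more than 2 times the WT mean, while replicate 1 lay below every WT heart. The log2 difference was 0.83 ± 0.51 over all hearts (adjusted p = 0.0212 in the authors' deposited table, DESeq2) and 1.34 ± 0.05 without that replicate. It was 0.15 with GC offsets (edgeR refit, adjusted p = 1). The transcript has a GC content of 59.9%, and 26.6% of its exon bases overlap a gene on the opposite strand.

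Trim55 showed the same pattern on a smaller scale, with 334, 574, 571 and 523 counts in ARE-/- and 329, 328, 341 and 317 in WT. Replicate 1 lay among the WT hearts and the other 3 above them. The log2 difference was 0.57 ± 0.19 with that replicate and 0.76 ± 0.05 without it, and 0.90 with GC offsets (edgeR refit, adjusted p = 0.00577). The call was lost in 10 of 17 alternatives for Trim55 and in 13 for Trim54. Per length Trim54 was the second member in WT, at 75.8 ± 5.04 FPKM, against 173 ± 73.9 in ARE-/- (SD, n = 4 each).

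Outside these groups Trim47, a RING protein known from endothelium, had 937, 1763, 1832 and 2047 counts in ARE-/- and 452, 446, 875 and 544 in WT. The groups did not overlap, and the log2 difference was 1.5 ± 0.34, or 1.97 ± 0.11 without both libraries that stood apart, and 0.70 with GC offsets (edgeR refit, adjusted p = 0.0083). Trim35 and Trim27 rose by 0.58 ± 0.19 and 0.53 ± 0.14, and the Trim35 groups overlapped through ARE-/- replicate 1. Neither passed with GC offsets (edgeR refit, adjusted p = 1 and 0.292).

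Low and erythroid TRIM genes fell. Trim10, a ligase of red cell development, had 109.6, 58.2, 41.3 and 71.3 counts in ARE-/- and 166, 195, 264 and 195 in WT, a log2 difference of -1.61 ± 0.32. Trim58, which acts in late red cell precursors, averaged 1.51 counts in ARE-/- and 11.5 in WT. All 8 listed of 14 red cell markers, a list added after the values were seen, fell too, with summed counts of 116806 to 442395 in ARE-/- and 730730 to 874875 in WT. ARE-/- replicate 1 was the highest of its group in Trim10 and Trim58, and the red cell median relative to WT was -0.90 there, against -2.65 to -2.51 in the other ARE-/- hearts. The share of red cell RNA in these falls was not tested. The remaining falls were Trim39 at -0.77 and Trim67, Trim71 and Trim9 at -1.65 to -2.91, the last 3 with mean counts under 50.

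The adaptors of cullin ligases carried most of the falls among muscle genes. Of 29 muscle-related ligases and adaptors, 10 were listed, and 8 fell: Fbxo32, Fbxo40, Klhl31, Rnf207 and the ASB genes Asb5, Asb12, Asb14 and Asb15. With Trim54 and Trim55 included the median log2 difference was -0.84, and relative to the WT mean it was -1.05 in ARE-/- replicate 1 and -0.85 to -0.61 in the other ARE-/- hearts. Like the interferon-related list, this one was assembled with earlier results known. The 9 listed cardiomyocyte markers had a median of -0.79, and whether the muscle adaptors fell beyond them was not tested.

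Fbxo32 encodes atrogin-1, the F-box protein known for its induction in wasting muscle. Its counts were 818, 788, 921 and 776 in ARE-/- and 1554, 1511, 1053 and 1516 in WT. All ARE-/- hearts lay below all WT hearts, and WT replicate 3 was far below the other WT hearts. The log2 difference was -0.76 ± 0.15, or -0.89 ± 0.08 without both libraries that stood apart, and -0.24 with GC offsets (edgeR refit, adjusted p = 0.63).

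Fbxo40, a muscle F-box protein that targets an insulin signalling adaptor, had 2136, 2798, 2755 and 2694 counts in ARE-/- and 3641, 3367, 3056 and 3656 in WT. The groups did not overlap, yet the difference of -0.41 ± 0.11 was small and its call was lost in 11 of 17 alternatives. Fbxo6, which binds sugar chains of misfolded glycoproteins, was the only FBXO gene that rose. It had 623, 1072, 999 and 1106 counts in ARE-/- and 584, 621, 599 and 598 in WT, so that replicate 1 was level with the highest WT heart. The difference was 0.63 ± 0.19, or 0.82 ± 0.05 without that replicate, and it turned to -0.12 with GC offsets (edgeR refit, adjusted p = 1), 1 of 10 alternatives of 17 in which its call was lost.

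The other FBXO genes all fell. Fbxo9 averaged 283 ± 23.6 counts in ARE-/- and 412 ± 45.1 in WT, a log2 difference of -0.54 ± 0.10, and Fbxo27, another glycoprotein-binding adaptor, 12.0 ± 7.59 in ARE-/- and 43.3 ± 16.0 in WT, at -2.13 the largest FBXO difference. Fbxo25, Fbxo3 and Fbxo45 differed by -0.74, -0.47 and -0.41. Of the 7 fallen FBXO genes, Fbxo9 alone passed with GC offsets (edgeR refit, -0.88, adjusted p = 0.000324), and Fbxo3 turned to 0.16.

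The FBXW genes moved in both directions. Fbxw7, the adaptor that degrades cyclin E, Myc and Notch, lies at chr3:84815268-84979198 on the forward strand (mm10). It had 654, 530.4, 537 and 577 counts in ARE-/- and 1499, 1474, 1161 and 1425 in WT. The groups were far apart, with a log2 difference of -1.27 ± 0.11 (adjusted p = 8.43e-16 in the authors' deposited table, DESeq2) and of -0.80 with GC offsets (edgeR refit, adjusted p = 0.00025). Fbxw17 had 136, 148, 133 and 128 counts in ARE-/- and 40.8, 44.3, 67.8 and 52.4 in WT, a difference of 1.43 ± 0.17 with clear separation. Fbxw8, the partner of the cullin Cul7, had 282, 918, 745 and 830.1 counts in ARE-/- and 263, 261, 312 and 265 in WT.

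ARE-/- replicate 1 lay among the WT hearts for Fbxw8, and the difference was 1.20 ± 0.40 with it and 1.59 ± 0.11 without it. With GC offsets it was 0.51 and did not pass (edgeR refit, adjusted p = 0.15). A gene on the opposite strand overlaps 33.4% of the exon bases of Fbxw8. Cul7 itself averaged 535.9 ± 209 counts in ARE-/- and 301 ± 56.9 in WT and also rose, with overlapping groups. Fbxw11, which recognises the NF-kB inhibitor, rose by 0.42 ± 0.11.

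Kelch-like adaptors bind Cul3, and all but Klhl36 fell. Klhl23 had 228, 133, 161 and 163 counts in ARE-/- and 571, 509, 584 and 552 in WT, the largest fall among adaptors above 50 counts, at -1.72 ± 0.17 (adjusted p = 1.31e-16 in the authors' deposited table, DESeq2). Klhl31, a muscle Kelch protein that limits filamin C in mice, had 789, 773, 862 and 842 counts in ARE-/- and 1557, 1619, 1172 and 1556 in WT, a difference of -0.84 ± 0.11. Klhl12, which enlarges the coats of vesicles leaving the endoplasmic reticulum, had 195, 195, 173 and 168 counts in ARE-/- and 352, 329, 315 and 368 in WT, a difference of -0.90 ± 0.07. None of these 3 overlapped between groups.

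Klhl36 averaged 125 ± 23.2 counts in ARE-/- and 62.9 ± 15.9 in WT and rose by 1.00 ± 0.23. With GC offsets Klhl23 still fell (-1.07, adjusted p = 5.71e-05), while Klhl31, Klhl12 and Klhl36 did not pass (edgeR refit, adjusted p = 0.353, 0.625 and 1). Klhl24 fell by 0.51, a difference that turned to 0.14 with GC offsets (edgeR refit, adjusted p = 1), and Klhl29 and Klhl10, both under 50 counts, by 1.24 and 1.64. Cul3, their scaffold, fell by 0.33 ± 0.08, to 1018 ± 90.3 counts in ARE-/-, against 1282 ± 89.1 in WT.

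ASB proteins carry ankyrin repeats and a SOCS box that binds Cul5, and several are known from striated muscle. Asb5 had the smallest SE of all fallen members, with 149.6, 125, 147 and 138 counts in ARE-/- and 349.5, 347, 361 and 337 in WT. Its log2 difference was -1.32 ± 0.06 (adjusted p = 1.64e-17 in the authors' deposited table, DESeq2) and -0.66 with GC offsets (edgeR refit, adjusted p = 0.00354). Asb14, the third member by FPKM in WT, had 539, 904, 942 and 963 counts in ARE-/- and 1503, 1439, 1446 and 1458 in WT. ARE-/- replicate 1 was by far the lowest, and the difference was -0.84 ± 0.20 with it and -0.64 ± 0.03 without it.

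Asb15, an ASB protein of muscle, had 84.2, 168, 217 and 192 counts in ARE-/- and 309, 331, 319 and 283 in WT, a difference of -0.99 ± 0.31, or -0.70 ± 0.12 without ARE-/- replicate 1. Asb12 averaged 30.2 ± 7.65 counts in ARE-/- and 63.9 ± 16.7 in WT. The groups did not overlap in either gene, and the call was lost in 8 of 17 alternatives for Asb15 and in 7 for Asb12. Asb8 and Asb4 fell by 0.61 and 0.81. Asb6 was the only ASB gene that rose, with 199, 328, 372 and 346 counts in ARE-/- and 154, 158, 159.7 and 147 in WT, a difference of 0.97 ± 0.21. With GC offsets Asb14, Asb15, Asb12, Asb4 and Asb6 did not pass (edgeR refit, adjusted p = 0.801, 1, 0.11, 1 and 0.469), whereas Asb8 and Asb5 did. Cul5, the scaffold of these adaptors, averaged 450.2 ± 64.1 counts in ARE-/- and 658 ± 56.2 in WT, a fall of 0.55 ± 0.12.

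**Figure D3:**
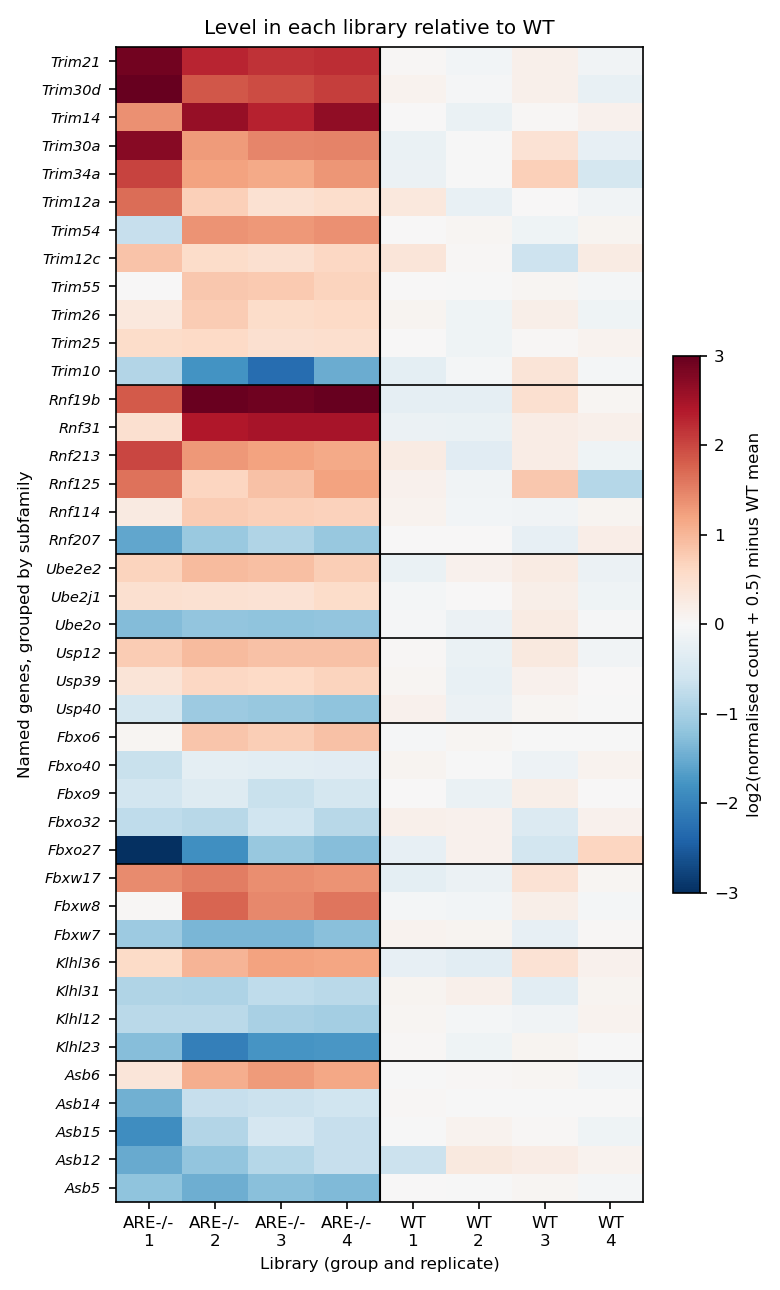
Level in each heart relative to the WT mean (colour, difference in log2(normalised count + 0.5), red higher and blue lower) for the 41 members singled out by the naming rule (rows, by subfamily) in 4 ARE-/- and 4 WT hearts (columns). TRIM and RNF rows are mostly red in ARE-/- and KLHL and ASB rows mostly blue, and ARE-/- replicate 1 differs from its group in both directions, as in Trim30d at 419 and Trim54 at 1144 counts. The rows include all 15 listed interferon-related genes, all risen, and all 10 muscle-related ones, 8 of them fallen. Their colours thus do not give the split of a whole subfamily.

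Among E2 enzymes, the largest change was a fall. Ube2o, an E2 that also selects its own targets and remodels red cell precursors, had 625, 679, 673 and 686 counts in ARE-/- and 1516, 1371, 1847 and 1504 in WT. The ARE-/- hearts were close together and all below WT, with a log2 difference of -1.22 ± 0.10 (adjusted p = 1.68e-16 in the authors' deposited table, DESeq2) and of -1.95 with GC offsets (edgeR refit, adjusted p = 4.96e-06). The red cell markers, which fell too, were highest among ARE-/- hearts in replicate 1, where Ube2o was lowest, and their part in the Ube2o fall was not tested.

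The rises among E2 enzymes were moderate. Ube2e2 had 195, 236, 229 and 204 counts in ARE-/- and 106, 133, 146 and 109 in WT (0.82 ± 0.13), and Ube2j1, an E2 in the membrane of the endoplasmic reticulum that helps clear misfolded proteins, 616, 611, 599 and 651 in ARE-/- and 428, 446, 503 and 406 in WT (0.48 ± 0.07). Ube2q1 rose by 0.44 ± 0.05. In all 3 the groups were apart. Ube2b, a partner of DNA repair ligases and the member with the highest FPKM in WT, fell to 121 ± 11.7 FPKM in ARE-/-, against 141 ± 13.7 in WT (SD, n = 4 each). Its log2 difference of -0.41 ± 0.09 turned to 0.26 with GC offsets (edgeR refit, adjusted p = 0.468), where Ube2q1 did not pass either (0.13, adjusted p = 1). Ube2cbp, at 7.81 counts in ARE-/- and 19.9 in WT, matches the prefix by name but is no E2 enzyme.

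Deubiquitinases of the USP family mostly fell. Usp40 had 199, 133, 129 and 123 counts in ARE-/- and 315, 251, 298 and 284 in WT, a log2 difference of -0.99 ± 0.17. Usp47, Usp7, Usp33, Usp37 and Usp24 differed by -0.64, -0.53, -0.78, -0.86 and -0.34. In the first 4 of these 5 replicate 1 was the highest ARE-/- heart by at least 0.5 on the log2 scale, as in Usp7, the protease that stabilises Mdm2, with 759.5, 489, 516 and 508 counts in ARE-/- and 869.6, 811, 743 and 801 in WT. Mdm2 itself averaged 349 ± 126 counts in ARE-/- and 546 ± 34.6 in WT and fell. With GC offsets the 5 genes lay between -0.21 and 0.05 and none passed.

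Usp12 and Usp39 were the risen USP genes. Usp12, which acts with the cofactor UAF1, had 522, 598, 567 and 568 counts in ARE-/- and 317, 268, 379 and 286 in WT. Usp39, a splicing factor without protease activity, had 396, 469, 464 and 483 counts in ARE-/- and 318, 263, 333 and 309 in WT. Both groups were apart, with differences of 0.86 ± 0.12 and 0.57 ± 0.10, and both still rose with GC offsets (edgeR refit, adjusted p = 0.000402 and 0.0271). Usp17la was listed as fallen at 0.439 counts in ARE-/- and 5.76 in WT, and 38.3% of its 31-base words occur in close copies.

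ARE-/- replicate 1 differed from the other ARE-/- hearts along GC content. Among the 67 members at 50 counts or more it was at least 0.5 (log2) above their mean in 17 (25.4%) and below it in 16 (23.9%), beside 23.5% and 24.3% of 3555 listed genes. Members above had a median transcript GC content of 44.8% and were led by Trim30d, Trim30a and Trim12a, and members below had 55.1% and were led by Trim54, Rnf31 and Rnf123. Spearman's correlation between this deviation and GC content was -0.61 across the 67 members and -0.61 across 3544 listed genes, which share these 8 libraries and are not independent replicates. The log2 difference between genotypes correlated with GC content by 0.26 across the 67 members and 0.40 across the 3544 listed genes. Across all 82 members, with those under 50 counts included, it was 0.10. Whether GC content accounts for any single change was not tested.

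**Figure D4:**
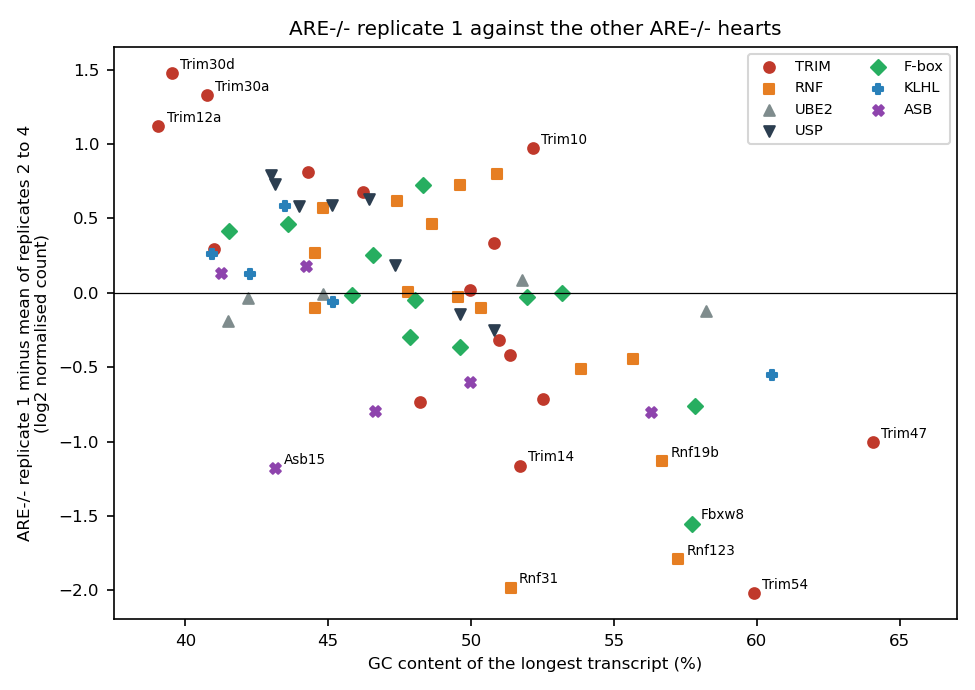
Deviation of ARE-/- replicate 1 from the mean of the other 3 ARE-/- hearts (vertical axis, log2 normalised count) against the GC content of the longest transcript (horizontal axis, %) for the 67 members with a mean normalised count of at least 50. Each point is a gene, and the points run from Trim30d and Trim30a at low GC to Trim54 and Rnf123 at high GC, with a Spearman correlation of -0.61.

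Levels can be compared between genes only per length, and in WT hearts 26 members reached 10 FPKM or more and 15 were under 1 FPKM. Ube2b led at 141 FPKM, followed by Trim54 (75.8), Asb14 (41.9), Fbxo40 (39.5), Rnf130 (27.1) and Rnf181 (25.9). Ube2b and Trim54 stood apart from the rest, and Asb14 and Fbxo40, with SDs of 1.28 and 3.34, were within their spread of each other, as were Rnf130 and Rnf181. Of the 26 abundant members 9 rose and 17 fell, beside 51.7% fallen of all listed genes at that level, and of the 15 scarce ones 4 rose and 11 fell, beside 52.7% fallen.

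Other genes of the pathway were read from lists of enzymes outside the 9 prefixes. Over all tested genes 24.6% were listed, and of the listed genes 52.1% rose and 47.9% fell. No list was tested against these shares. Among ubiquitin, ubiquitin-like and E1 genes 4 of 16 were listed and all 4 rose: Uba7, the E1 of the interferon-induced modifier ISG15, by 2.55 ± 0.24, Uba1, the main ubiquitin E1, by 0.88 ± 0.35, Sumo3 by 0.47 ± 0.07 and Sae1 by 0.36 ± 0.07. Uba7 averaged 1223 ± 325 counts in ARE-/- and 202 ± 21.7 in WT, while the Uba1 groups overlapped. Of 33 subunits of the 26S proteasome 11 were listed and all 11 rose, with a median of 0.48. The median over all risen listed genes was 1.01, so these rises were smaller than most, with no test of that difference. The core subunits Psma7 and Psma5 rose by 0.90 ± 0.08 and 0.86 ± 0.08.

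Cullins and their regulators gave 2 risen and 5 fallen of 29 genes, among them Cul4a, which fell by 0.53 ± 0.06 to 760.9 ± 47.0 counts in ARE-/-, against 1095 ± 60.3 in WT. HECT and RING-between-RING ligases gave 3 risen and 7 fallen of 33. Herc6, the main ISG15 ligase of mice, rose by 2.84 ± 0.29, and Huwe1, a giant HECT ligase, fell by 0.47 ± 0.06. Other RING and U-box ligases gave 5 risen and 4 fallen of 43, led by Dtx3l at 2.34 ± 0.14 and Pml at 1.21 ± 0.09.

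Other F-box, Kelch and SOCS-box genes gave 4 risen and 4 fallen of 30. Ivns1abp, a Kelch protein, fell by 1.07 ± 0.17 to 6719 ± 1720 counts in ARE-/-, against 13787 ± 761 in WT, and Spsb2, an adaptor for the inducible nitric oxide synthase, rose by 1.02 ± 0.09. Deubiquitinases outside the USP family gave 4 risen and 3 fallen of 33, with Uchl1 up by 0.76 ± 0.21 and Zranb1 down by 0.67 ± 0.15.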

How the data were processed

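Total RNA from 4 ARE-/- and 4 WT mouse hearts was sequenced in pairs of reads, and the libraries were taken as separate mice, so that p-values measure the spread between these libraries. Reads were aligned with STAR to mm10 and tested with DESeq2, per the submitters' processing notes. Tool versions, the read counter and its strandedness, and the annotation release were not given in the sources used here. Without strand, reads of overlapping antisense genes cannot be told apart. The deposited table gives, per the file headers, the count of reads per gene and library, FPKM, the mean signal of each group, a log2 fold change and p-values raw and adjusted. Each group's mean signal is linear in the counts of its libraries, from which the authors' size factors were solved. The table is limited to genes with an adjusted p under 0.05, so the authors' calls stand as the main test in place of an edgeR test, and refits serve as alternatives whose p-values were adjusted over all 19606 tested genes.

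The members and lists were chosen with earlier results of these data known. Singled out were, in each subfamily of more than 1 listed gene, the 3 smallest adjusted p and the largest rise and fall at a mean normalised count of at least 50, all listed interferon-related and muscle-related members, and the 2 smallest adjusted p of each pathway list; other genes were picked after their values were seen. A single gene is counted but not reported here. Refits used R 4.3.3, edgeR 4.0.16, limma 3.58.1 and DESeq2 1.42.0, and were tested on simulated data; other steps used Python 3.11.15. GC content is that of the longest transcript, and GC offsets remove its smoothed trend in each library. The trend was fitted on listed genes at 50 counts or more, as deviation from the mean of all 8 libraries. A difference between genotypes that runs with GC content is therefore removed too. A call lost with GC offsets cannot tell such a difference from a technical trend. Promoter windows and their build, GRCm38.p6, come from RefSeq. Library totals of 13416171 to 19432098 reads set the counting error, and the values of genes with few reads are the least precise.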

Additional observations from a re-analysis of the deposited data

Results flagged for a closer look

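A library that lay far from the other 3 of its group was found in 15 of 82 groups of 4 values. These groups are the 41 members singled out by the naming rule, each in ARE-/- and in WT, and other members were not screened. Chance flags about 1 in 20 independent groups. All genes share the same 8 libraries, so the groups are not independent and that rate is no measure for them. In 12 of them the library was ARE-/- replicate 1. It was high in Trim12a (641 normalised counts), Trim21 (665), Trim30a (1072), Trim30d (419), Trim34a (197), Rnf213 (1374) and Usp40 (199). It was low in Trim54 (1144), Rnf19b (1731), Rnf31 (313), Asb14 (539) and Fbxo40 (2136). Trim54 had the widest gap, with the other ARE-/- hearts at 4548 to 4719. The other 3 flags fell on WT replicate 3, which was high in Fbxw8 (312) and low in Fbxo32 (1053) and Klhl31 (1172). In these 3 genes the other WT hearts ran from 261 to 265, from 1511 to 1554 and from 1556 to 1619, in that order.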

How the results depend on the processing

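Beside 37 risen and 45 fallen members, edgeR refits called 23 and 45 with TMM, 36 and 22 with library totals, 25 and 20 with GC offsets, 24 and 18 with GC offsets and the replicate block, and 1 and 0 with the 3 close libraries of each group summed. In the first 4 of these, risen shares of called members were 33.8%, 62.1%, 55.6% and 57.1%. Those of all called listed genes were 42.1%, 70.7%, 55.9% and 56.9%, so the split moved with the whole table. The summed refit called 273 risen and 24 fallen of 4820 listed genes. A DESeq2 refit called 37 and 45, and 2505 and 2304 of all listed genes. These genes were listed through a DESeq2 call on the same counts and size factors. The outcome of that refit was thus largely fixed in advance, and it is 1 of the 17 alternatives. Leaving out 1 library gave 23 to 34 risen and 24 to 43 fallen members. Risen shares were then 44.2% to 51.0% of the called members and 52.0% to 56.7% of all called listed genes. The replicate block gave 27 and 35, with shares of 43.5% and 53.6%. Same-numbered libraries correlated by -0.179 to 0.250 in their deviations from the group mean. The labels name no pairs. These correlations cannot decide whether hearts were paired, since a library that stood apart shifts the deviations of its whole group. The median of TRIM was 0.78 with library totals and 0.73 at 50 counts or more. That of RNF was 0.47 with TMM, 0.81 with totals and 0.32 with GC offsets. That of UBE2 was -0.12 with TMM, 0.21 with totals, 0.44 at 50 counts or more and 0.19 with GC offsets, and leaving out 1 library gave -0.019 to 0.056, with -0.0037 without ARE-/- replicate 3, -0.015 without WT replicate 1 and -0.019 without WT replicate 4. FBXO had -0.64 with TMM, -0.31 with totals, -0.29 with GC offsets and -0.56 to -0.47 with 1 library left out. KLHL had -1.03 with TMM, -0.70 with totals and -0.28 with GC offsets, ASB -0.38 and USP -0.018 with GC offsets. The median of all listed genes was 0.01 with GC offsets (edgeR refit). Single genes turned under GC offsets without and with the block in Fbxo6 (-0.12 and -0.12) and Rnf114 (-0.11 and -0.11). The cause was not tested. In every refit except the summed one, 17 risen and 11 fallen members kept their call. These refits include the DESeq2 refit and those with the replicate block, with the limits given above. No matching share of all listed genes is given here, so this count does not set the members apart from the whole table.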
